A study of Mus musculus with 12 samples.

Results

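Ion channel genes whose symbols begin with Kcn (potassium channels), Scn (sodium channels), Cacna, Cacnb or Cacng (calcium channels) or Hcn (hyperpolarization-activated channels) were read out of the m6A peak lists of mouse hippocampus. Members were chosen by gene symbol alone, without regard to any measured value. Of the 136 RefSeq genes that match the name rule, 122 had at least 1 m6A peak in either genotype. They held 359 of the 33622 peaks listed for WT mice, in 117 of 15781 genes, and 371 of the 34935 peaks listed for Tyrobp-/- mice, in 116 of 16146 genes. Peaks in both lists were found in 111 of these genes. The table in which the study compared the genotypes held 5640 rows, of which 44 lay in 33 channel genes. The rule by which a peak entered it is not stated, so a row is not by itself a difference between the genotypes.

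The samples were hippocampi of male mice aged 6 months, either WT or Tyrobp-/-. Tyrobp encodes an adaptor protein of microglial surface receptors, and the knockout line carries a short TALEN-made deletion in exon 2 of that gene, bred with C57BL/6 mice, with WT littermates as controls. Each genotype had 3 samples, each was RNA pooled from 3 mice, and from each sample RNA immunoprecipitated (IP) with an antibody to m6A was sequenced beside untreated input RNA, which made 12 libraries. Peak calling by the authors took the 3 samples of a genotype as one, so every peak has 1 value per genotype, no spread between samples can be given, and no difference between the genotypes in a peak value was tested. The fold enrichment of a peak is its IP level over its input level.

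Voltage-gated channels open or close with the membrane potential and let sodium, calcium or potassium ions pass, which sets how neurons fire, repolarize and release transmitter. Sodium channels of axons start the action potential, potassium channels end it and hold the resting potential, and calcium channels couple it to transmitter release. N6-methyladenosine (m6A) is a base modification of mRNA, commonly placed near stop codons and in 3′ UTRs, that is known to affect the stability and translation of transcripts. Not every gene of the name rule encodes a channel opened by voltage. The Kcnj genes encode inward rectifiers, the Kcnk genes encode leak channels with 2 pore domains, the Kcnn and Kcnt genes encode channels gated by calcium or sodium ions, and several Cacng genes encode TARPs, the auxiliary subunits of AMPA receptors. Pore subunits that voltage opens made up 65 of the 136 genes and held 198 WT and 214 Tyrobp-/- peaks.

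The letters GGAC, the core of the sequence context in which m6A is commonly found, could be shown only where a peak reached the start of a transcript, because the RefSeq sequences at hand end 50 bases after each start. Of the channel genes, 99 matched that table by symbol. The exonic part of a channel gene peak covered all 50 bases of a RefSeq start window for 20 windows in WT and 21 in Tyrobp-/- mice, and GGAC on the transcribed strand stood in 4 and 5 of them. The same letters stood in 21.8% and 21.6% of the start windows that any peak of the list covered, and in 18.9% of all 32851 start windows of the table. The stretches below are shown because the peak over each had a false discovery rate (FDR) below 1e-5 in both genotypes, 1 to a gene. The Kcnj3 window held GGAC again, and only the first is shown. They are written 5′ to 3′ from RefSeq on GRCm38.p6 with GGAC in capitals, and they mark letters and not mapped m6A sites.
Kcnj3, chr2:55435971-55435998, plus strand: tccatccatccgGGACaagcaaagggcg
Kcnk12, chr17:87797945-87797972, minus strand: aggggaggaacaGGACtgctcgcacagc
Scn8a, chr15:100870658-100870685, plus strand: tccggagcgccgGGACgcaggccgggga

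The peak over the Kcnj3 stretch, at the 5′ end of a subunit of the G protein-gated inward rectifier, had a fold enrichment of 13.1 in WT and 14.3 in Tyrobp-/- mice. The peak over the start of Kcnk12, a 2-pore potassium channel, had values of 11.9 and 12.5. The peak over the start of Scn8a, a sodium channel of axon initial segments and nodes, had values of 7.58 and 12.6. Each of these start peaks had the higher listed value in Tyrobp-/- mice, by less than 2-fold.

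Valid reads ranged from 61189368 to 73554506 per library. In the IP libraries the share of G and C bases ranged from 49.16% to 50.24% in WT and from 48.46% to 49.33% in Tyrobp-/- mice, and the share of bases at Q30 was lowest in the replicate 2 libraries, at 92.18% to 92.4%. Tyrobp itself had no peak in either list. Marker genes of hippocampal neurons carried peaks in 7 of 8 genes in each genotype, and those of microglia in 7 of 9. In whole tissue, fewer cells of a type and less RNA per cell cannot be told apart.

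A channel gene with a peak carried a mean of 3.07 peaks in WT and 3.20 in Tyrobp-/- mice, compared with 2.13 and 2.16 over all genes with a peak. Some listed peaks of a gene overlap one another within a list, as the 2 WT peaks of Cacna1s did, and each was counted. The channel genes with a peak were also longer, with a median span of 41.8 kb against 15.6 kb in the WT list. The median fold enrichment of channel gene peaks was 5.86 in WT and 6.35 in Tyrobp-/- mice, while over all peaks it was 5.54 and 5.72. Very strong support was more frequent among channel gene peaks, since 20.9% of them in WT and 16.2% in Tyrobp-/- mice had an FDR listed at 0, against 11.5% and 10.2% of all peaks. An FDR below 0.05 was listed for 90.3% and 88.9% of the channel gene peaks, and the others were weakly supported.

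**Figure D1:**
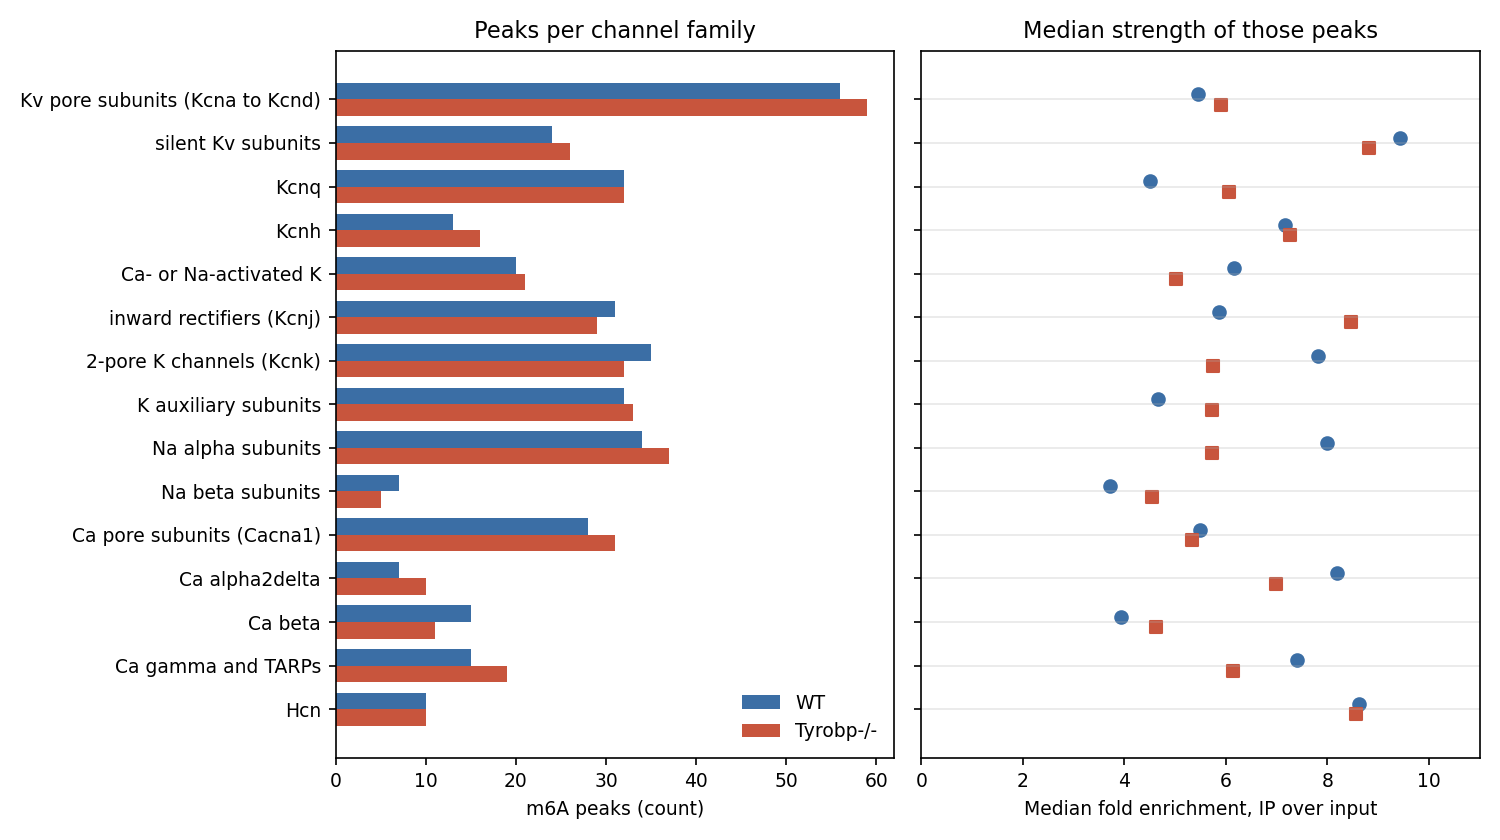
Number of m6A peaks (left, count) and median fold enrichment of IP over input (right) for 15 families of channel genes, in WT (blue) and Tyrobp-/- mice (red), each value from 3 pooled samples. Kv pore subunits held the most peaks, 56 in WT and 59 in Tyrobp-/- mice, and median fold enrichment lay between 3.71 and 9.43 in every family.

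The 3′ UTR was the most frequent place of channel gene peaks. In WT mice 186 of 359 peaks, 51.8% with an exact 95% binomial interval of 46.5% to 57.1%, were annotated to 3′ UTRs, 20.6% to 5′ UTRs and 27.6% to other exons. In Tyrobp-/- mice 186 of 371 peaks, 50.1% with an interval of 44.9% to 55.3%, were annotated to 3′ UTRs, 21.6% to 5′ UTRs and 28.3% to other exons. Over all peaks the 3′ UTR share was 47.2% in WT and 49.3% in Tyrobp-/- mice. The intervals cover the counting of peaks only. Among peaks with an FDR below 1e-5 the 3′ UTR share of channel genes was 62.5% in WT and 63.5% in Tyrobp-/- mice, compared with 57.7% and 60.3% of all peaks.

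**Figure D2:**
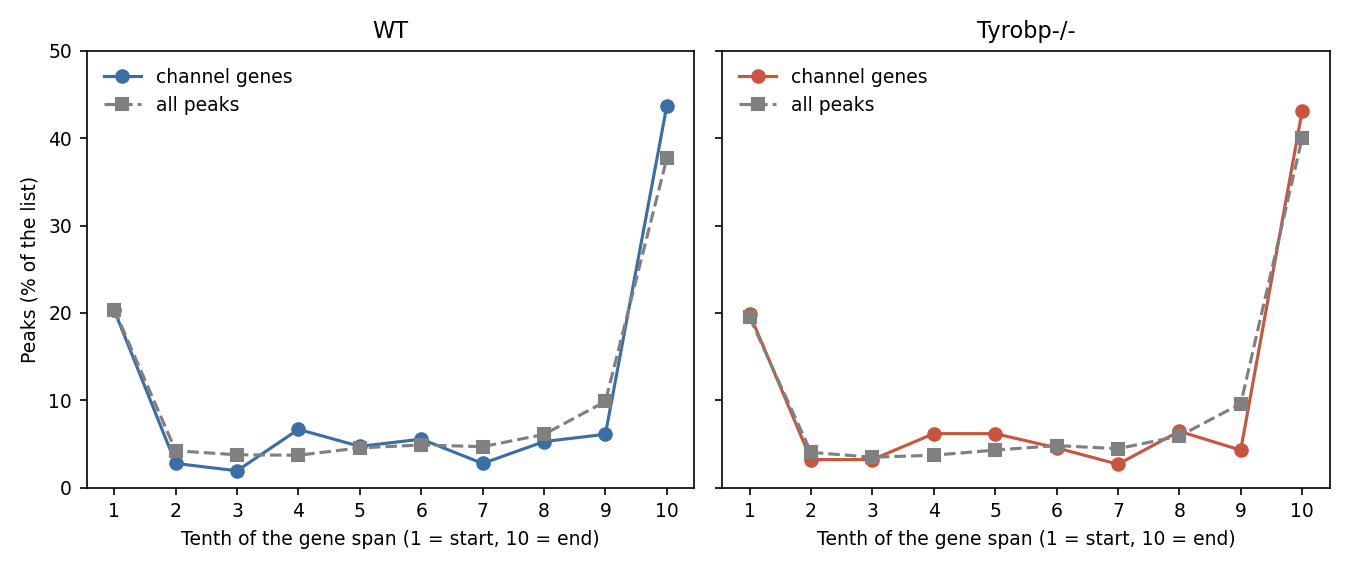
Share of peaks (% of the list) whose midpoint fell in each of 10 equal parts of the annotated gene span, from start to end, for channel genes (circles) and for all peaks (squares), in WT (left) and Tyrobp-/- mice (right). The last of them held 43.7% of the channel gene peaks and 37.7% of all peaks in WT mice, and the first held 20.3% and 20.4%.

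A part of the peaks named after channel genes lay in exons of another gene. The exon given in the annotation belonged to a different Ensembl gene than the named one for 42 of 359 peaks in WT, 11.7%, and for 51 of 371 in Tyrobp-/- mice, 13.7%. Over all peaks that share was 5.18% and 5.22%. Peaks annotated to UTRs carry no gene identifier and could not be checked in this way. By position, another RefSeq gene overlapped the span of 93 of 359 channel gene peaks in WT, 25.9%. In Tyrobp-/- mice this held for 90 of 371, 24.3%, and the share over all peaks was not taken. A further setting, chosen after the values were seen, left out the peaks given an exon of another gene. Without them, 58.7% of the channel gene peaks in WT and 58.1% in Tyrobp-/- mice were annotated to 3′ UTRs, and 49.8% and 52.0% of all peaks were. No peak annotated to a UTR could be removed, so these shares had to rise. The channel genes lost the larger part of their peaks, so the wider gap to all peaks is no result about them.

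Of the peaks given an exon of another gene, Kcnq1 held the most, 21 of 42 in WT and 20 of 51 in Tyrobp-/- mice. This gene encodes a potassium channel known from heart and inner ear, and it was the channel gene with the most peaks, 22 in WT and 20 in Tyrobp-/- mice. RefSeq places Kcnq1 at chr7:143106877-143427050 (GRCm38) and inside it the long noncoding RNA Kcnq1ot1 at chr7:143213111-143296547, an antisense transcript known from imprinting of this region. Of the peaks named Kcnq1, 21 in WT and 19 in Tyrobp-/- mice lay within the span of Kcnq1ot1. The annotation gave the exon of 1 other Ensembl gene for 21 of the WT peaks and for all 20 of the Tyrobp-/- peaks. Their strand was not resolved in the values used here. The median fold enrichment of the peaks within the Kcnq1ot1 span was 3.91 in WT and 8.58 in Tyrobp-/- mice, with ranges of 1.80 to 12.7 and 1.96 to 31.4. Among those with an FDR below 0.05, 15 in WT and 14 in Tyrobp-/- mice, the medians were 3.54 and 4.85. The best supported of them, about 151 kb into Kcnq1, had a fold enrichment of 12.5 in WT and 17.3 in Tyrobp-/- mice, with log10 FDR of -34.8 and -41.3.

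**Figure D3:**
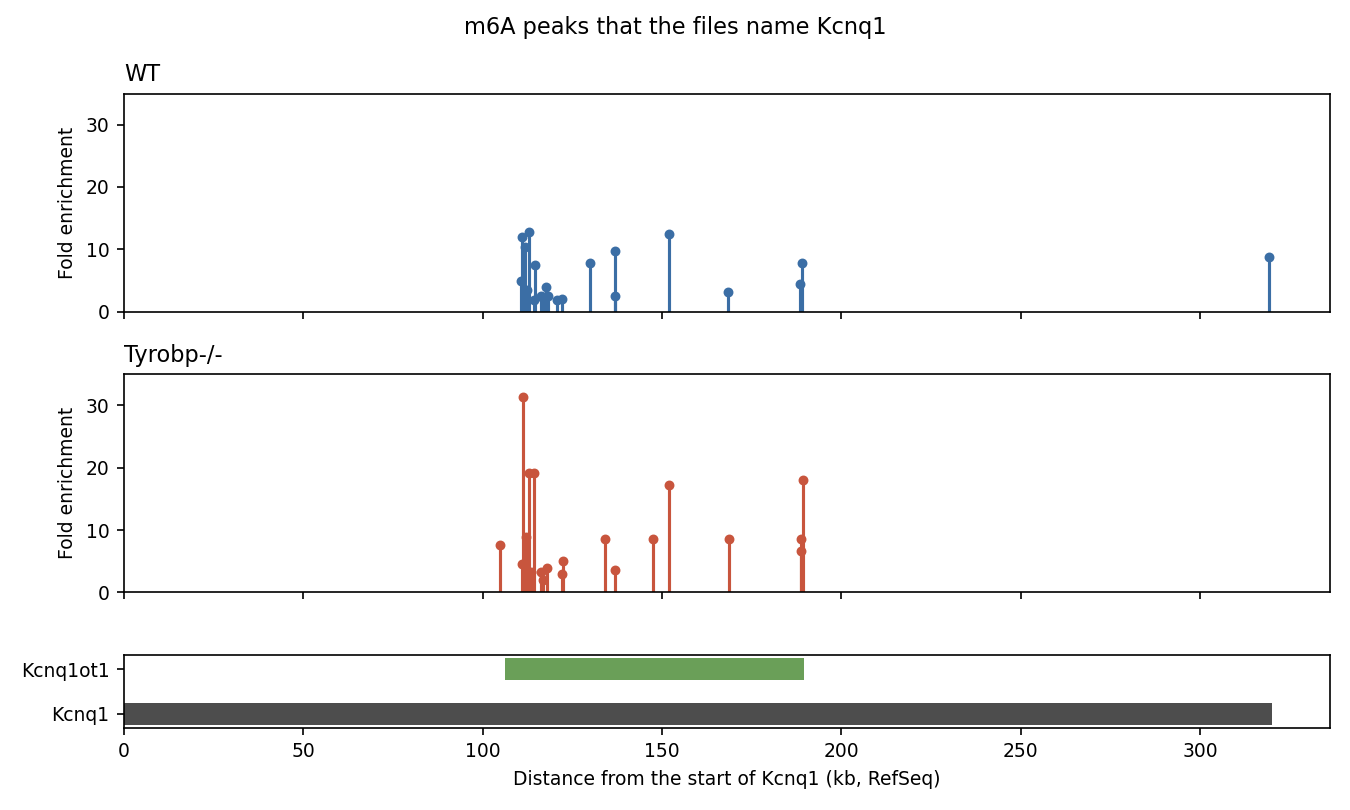
Position of the peaks named Kcnq1 (distance of the peak's midpoint from the RefSeq start of Kcnq1, in kb) and their fold enrichment, in WT (top) and Tyrobp-/- mice (middle), over the extents of Kcnq1 and Kcnq1ot1 (bottom). Except for 1 peak in each list, the peaks stood between 106.2 and 189.7 kb, where Kcnq1ot1 lies.

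Kcnab1, which encodes an auxiliary beta subunit of Kv channels, was next by number of peaks, with 9 in each genotype, of which 7 in WT and 6 in Tyrobp-/- mice were given an exon of another gene. Kcng2, a silent Kv subunit that forms channels only with other Kv subunits, had 7 and 9 peaks, of which 3 and 6 were given such exons. Kcnn2, a small-conductance calcium-activated channel, had 7 in each genotype, of which 3 and 2 were. Cacnb2, a calcium channel beta subunit, had 7 and 5 peaks and Kcnk2 had 7 and 5.

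Kv pore subunits were the largest family, with peaks in 16 of 17 genes, and Kcna7 had none. Kcnd3, a subunit of the A-type current, carried a 3′ UTR peak of 25.5 in WT and 25.6 in Tyrobp-/- mice at chr3:105668113-105670198. Kcnd2, the main A-type subunit of dendrites, had 3′ UTR values of 8.66 and 9.67 and 5′ UTR values of 6.52 and 7.33. At these peaks the genotypes differed by less than 1.2 times.

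The Kcna genes encode low-threshold channels of axons. Kcna1 had 3 matched peaks, 3.82, 4.65 and 5.91 in WT against 4.37, 4.17 and 8.06 in Tyrobp-/- mice. Kcna2 had 4 matched peaks, and each had a higher value in Tyrobp-/- mice, 8.79 against 12 in the 5′ UTR, and 5.74 against 6.72, 2.19 against 3.74 and 3.77 against 6.74 in the 3′ UTR. Kcna2 had 2 rows in the table that compared the genotypes. Kcna4 had its strongest peak at 12.7 in WT and 11.4 in Tyrobp-/- mice. Kcnc1, a fast-repolarizing channel of interneurons, had matched values of 6.47 and 5.55 in the 3′ UTR and 8.06 and 9.19 in the 5′ UTR.

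Silent Kv subunits had peaks in 9 of 10 genes, and Kcnv2 had none. Kcnf1 had its strongest peak at 18.4 in WT and 21.4 in Tyrobp-/- mice, and Kcng4 at 18.8 and 14.8. Kcnq3, a subunit of the M current, a brake on repetitive firing, had its strongest peak at 17.3 in WT and 12.5 in Tyrobp-/- mice, in the 3′ UTR. Kcnh channels had peaks in 7 of 8 genes, and Kcnh1 had none. The 2 matched peaks of Kcnh7, from the erg group, had values of 7.16 and 4.03 in WT and of 9.18 and 5.72 in Tyrobp-/- mice. Kcnh5 had the most peaks of this family, 3 in WT and 4 in Tyrobp-/- mice.

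Among the channels opened by calcium or sodium ions, 7 of 8 genes had a peak and Kcnt2 had none. Kcnma1, the large-conductance BK channel, had a matched 3′ UTR peak of 1.93 in WT and 3.23 in Tyrobp-/- mice, low values for the channel genes. Kcnn1 had matched values of 13.0 and 14.9. Its strongest WT peak, at 26.4 with a log10 FDR of -6.06, overlapped a Tyrobp-/- peak of 7.01 with a log10 FDR of -66.6, and these are not a matched pair.

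Inward rectifiers had peaks in 14 of 15 genes, and Kcnj1 had none. Kcnj11, the pore subunit of the channel closed by ATP, carried the strongest peak of all channel genes in both lists. It lay at chr7:46098407-46100764 in WT and chr7:46098437-46100764 in Tyrobp-/- mice, was annotated to the 5′ UTR, and stood within the RefSeq span of the gene. Its fold enrichment was 78.1 in WT and 194 in Tyrobp-/- mice, a ratio of 2.48, with an FDR listed at 0 in both. The other matched Kcnj11 peak had values of 3.84 and 2.41, with log10 FDR of -6.13 and -2.33. A better supported WT peak of 3.09 overlapped a Tyrobp-/- peak of 5.0, with log10 FDR of -95.4 and -81.1, and these are not a matched pair. Kcnj3, Kcnj6 and Kcnj9 encode the G protein-gated channels that slow firing under GABA and other transmitters. Kcnj6 had 4 matched peaks with values of 3.62 to 8.79 in WT and 3.97 to 10.3 in Tyrobp-/- mice, and it had more matched peaks than any other inward rectifier. Kcnj9 had 5.31 and 4.54 in its 3′ UTR, and 3 peaks in WT against 1 in Tyrobp-/- mice. Kcnj10, the inward rectifier of astrocytes, had matched values of 9.55 and 8.46 over its 5′ UTR and 7.60 and 8.37 in its 3′ UTR.

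Channels with 2 pore domains had peaks in 12 of 14 genes, and Kcnk4 and Kcnk16 had none. Kcnk9, an acid-sensitive leak channel, had the strongest peak after Kcnj11 in both lists, at chr15:72504569-72505619 in the 3′ UTR, with values of 66.4 in WT and 132 in Tyrobp-/- mice, just under a 2-fold difference. A second matched 3′ UTR peak of the same gene had values of 8.88 and 10.5. Kcnk2, the gene of the family with the most listed peaks, encodes a mechanosensitive leak channel. Several of its listed peaks over the 5′ UTR overlap one another within the same list. Its matched peaks had values of 5.75 and 4.62 and of 5.48 and 15.5 in the 5′ UTR, and of 2.22 and 2.88 in the 3′ UTR. The Tyrobp-/- peak of 15.5 also overlapped WT peaks of 17.1 and 20.9, so the maxima over this stretch were 20.9 in WT and 15.5 in Tyrobp-/- mice.

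Sodium channel alpha subunits had peaks in each of their 10 genes. Scn2a, the subunit of excitatory neurons, had matched 3′ UTR peaks of 8.43 and 6.82 in WT and 7.47 and 7.06 in Tyrobp-/- mice. Scn8a had 15.1 and 9.75 in WT against 13.8 and 7.85 in Tyrobp-/- mice, also in the 3′ UTR. Scn1a, the subunit of inhibitory neurons, had its main 3′ UTR peak at 9.63 and 9.58, and a smaller one at 1.39 and 2.90 with log10 FDR of -2.45 and -38.5. Scn3a had its main 3′ UTR peak at 11.5 and 17.3. The log2 ratio at the Scn3a peak was 0.59. Of the beta subunits, Scn2b and Scn3b had 3′ UTR peaks of 4.29 and 6.84 in WT and 4.39 and 7.06 in Tyrobp-/- mice. All 5 matched peaks of the family had the higher value in Tyrobp-/- mice, with a median log2 ratio of 0.29.

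Calcium channel pore subunits had peaks in 9 of 10 genes, and the retinal channel Cacna1f had none. Cacna1c, an L-type channel, had a 3′ UTR peak of 15.9 in WT and 16.4 in Tyrobp-/- mice, and Cacna1h, a T-type channel and the most often marked gene of the family, had one of 17.3 and 16.4. Cacna1e had its strongest value at 10.5 and 11. Cacna1a, the P/Q-type channel of transmitter release, had a single peak of 5.81 and 4.59, and Cacna1g had a 3′ UTR value of 6.54 and 5.46. Apart from a weakly supported pair in Cacna1d, the 20 matched peaks of this family stayed within 2-fold.

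Among auxiliary calcium channel genes, Cacna2d2 had no peak. Cacna2d1, the gabapentin receptor, had 8.18 in WT and 9.01 in Tyrobp-/- mice. Cacna2d4, with 4 and 7 peaks, had matched 3′ UTR peaks that differed in opposite directions, 19.7 against 9.97 and 3.99 against 8.25. Cacnb4 had 3.93 and 4.62 at its 3′ UTR peak, whose span also overlaps the RefSeq gene A430018G15Rik. The TARP genes Cacng2 and Cacng8 serve AMPA receptors, and Cacng2 had a 3′ UTR peak of 21.8 in WT and 19.0 in Tyrobp-/- mice. All 8 genes of the Cacng family had a peak in at least 1 list. Of the Hcn pacemaker channels, Hcn2 had 5.42 and 4.98 in WT and 4.27 and 5.70 in Tyrobp-/- mice, Hcn4 had 4 peaks in each list, and Hcn3 had none. Auxiliary subunits of potassium channels had peaks in 12 of 15 genes, with none in Kcnip2, Kcnmb2 or Kcnmb3. The BK subunit Kcnmb4 had the strongest of them in WT, at 35.2 against 22.9 in Tyrobp-/- mice, with log10 FDR of -8.56 and -5.12.

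The lists of the genotypes were then laid over each other. Of the channel gene peaks, 290 of 359 in WT, 80.8% with an exact interval of 76.3% to 84.7%, overlapped a Tyrobp-/- peak of the same gene by at least 1 bp, and 78.0% of all WT peaks did. In the other direction 292 of 371, 78.7% with an interval of 74.2% to 82.8%, overlapped a WT peak, and 75.8% of all Tyrobp-/- peaks did. The channel genes therefore stood near the background in both directions. The peaks without a partner, 69 in WT and 79 in Tyrobp-/- mice, were shorter, with a median exonic width of 181 and 150 bases against 479 and 449 bases for the overlapping ones, and 30.4% and 29.1% of them were annotated to 3′ UTRs, compared with 28.3% and 40.9% of all peaks without a partner. An FDR below 1e-5 was listed for 24 of the 69, 34.8%, and 16 of the 79, 20.3%, compared with 23.1% and 23.6% of all peaks without a partner.

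Of the 117 channel genes with a WT peak, 6 had peaks in the WT list alone, 5.13% compared with 10.1% of all genes with a WT peak. Scn11a, a sodium channel of sensory neurons, had 2, the stronger at 20.5 with a log10 FDR of -4.42. Kcnk7 had 1, at 12.7 with a log10 FDR of -2.30, and Kcne1 and Kcnk18 had values of 6.84 and 7.81 with FDRs above 0.05. Kcne2 and Kcnj13, both known from the choroid plexus, had better supported peaks of modest strength. Kcne2 had 2.57 and 2.34 with log10 FDR of -27.3 and -29.3. Kcnj13 had 2.01 with a log10 FDR of -44.3, and the span of that peak also lies within the gene Gigyf2. Choroid plexus markers carried 8 peaks in WT and 5 in Tyrobp-/- mice, with 4 and 3 in Kl, 2 and 1 in Clic6 and 2 and 1 in Otx2, while Ttr and Folr1 had none. Their part in the difference at Kcne2 and Kcnj13 was not tested.

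Of the 116 channel genes with a Tyrobp-/- peak, 5 had peaks in the Tyrobp-/- list alone, 4.31% compared with 12.2% of all genes with such a peak. Kcnh3, a channel of the elk group found in forebrain neurons, had a 3′ UTR peak of 13.5 with a log10 FDR of -242 at chr15:99241888-99242727. The others were weaker. Cacng6, Kcna10 and Kcnj15 had values of 6.67, 7.62 and 6.67 with FDRs above 0.05, and Kcne3 had 6.67 with a log10 FDR of -2.28. Of the other peaks without a partner, one over the 5′ end of the TARP gene Cacng3 in Tyrobp-/- mice, at 4.35, had the best support, with a log10 FDR of -286. It spanned 91011 bases from chr7:122671208. A WT peak of 2.69, with a log10 FDR of -15.7, ended just before it, at chr7:122670999-122671179. Both lists thus had a peak at this 5′ end, and the 2 did not overlap.

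A pair of peaks was matched where each was the other's largest overlap in the same gene, which gave 249 pairs in 109 channel genes. The median log2 ratio of fold enrichment, Tyrobp-/- over WT, was 0.01 over these pairs, with quartiles of -0.26 and 0.30, and 0.05 over all 23142 matched pairs, with quartiles of -0.29 and 0.39. The value was higher in Tyrobp-/- mice in 127 pairs and lower in 121. A difference below 1.5-fold was found in 180 of the 249 pairs, 72.3%, and in 70.4% of all pairs.

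**Figure D4:**
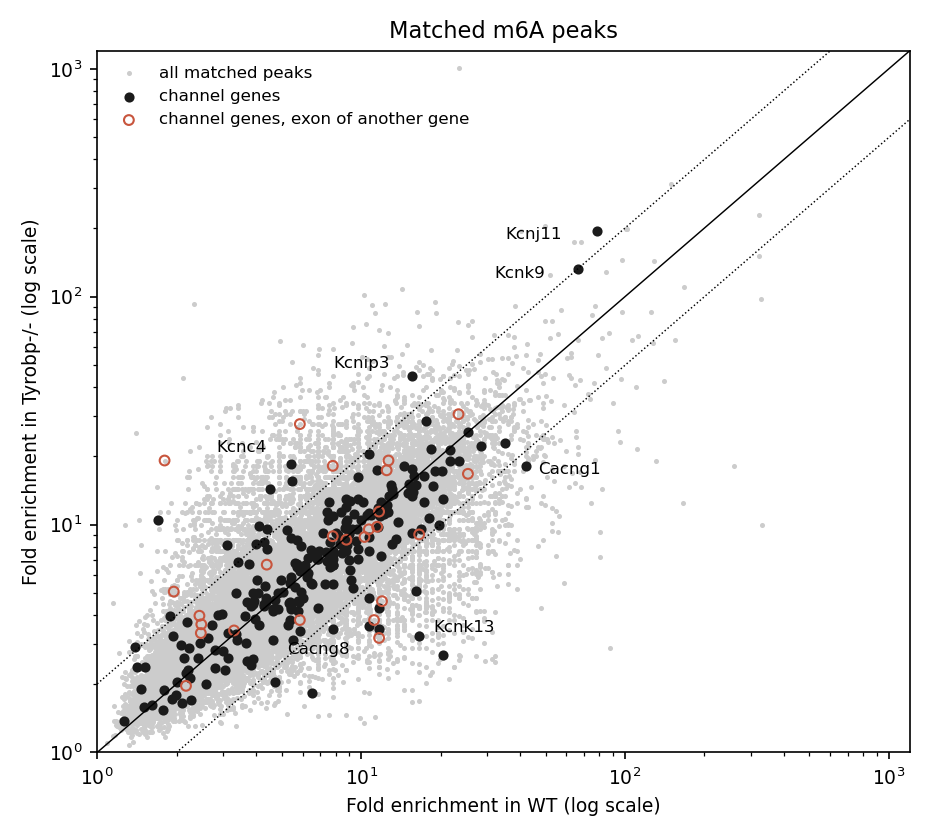
Fold enrichment of matched m6A peaks in WT (horizontal) and Tyrobp-/- mice (vertical), both on log scales, for all genes (grey), channel genes (black) and channel gene pairs in an exon of another gene (open red circles). The solid line marks equal values and the dotted lines 2-fold differences, and 31 of the 249 channel gene pairs lie on or beyond them.

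At least 2-fold higher values in Tyrobp-/- mice were found in 17 of 249 channel gene pairs, 6.83% with an exact interval of 4.03% to 10.7%, against 7.13% of all matched pairs. At least 2-fold lower values were found in 14 of 249, 5.62% with an interval of 3.11% to 9.25%, against 6.26% of all. Both shares were near the background. Of the 17 higher pairs, 9 overlapped by at least 50% of each span and 8 had an FDR below 1e-5 in both lists, and 4 were given an exon of another gene. Of the 14 lower pairs, 7, 3 and 3 did so. Restricted to FDR below 1e-5 in both lists before matching, 9 pairs were higher and 3 lower among 200, 4.50% and 1.5% compared with 4.71% and 3.65% of all such pairs. In 4 of the 17 higher and 4 of the 14 lower pairs a peak also overlapped a further peak of the other list, so the ratio depends on which peaks are paired. Among the 186 pairs with no further overlap, a setting chosen after the values were seen, 13 were higher and 10 lower, 6.99% and 5.38% compared with 6.40% and 5.24% of all such pairs.

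The pairs that passed the width and FDR criteria and were not given an exon of another gene were 7 higher and 3 lower. Most of these pairs were annotated to UTRs, where the gene of the exon could not be checked. By position, the RefSeq gene Gm35478 overlaps the span of the Kcnip3 peak in WT, and A330015K06Rik that of the Kcnab1 peak. Besides Kcnj11, the higher pairs were as follows. Kcnc4, a fast-repolarizing Kv subunit, had 5.44 in WT and 18.4 in Tyrobp-/- mice, over spans of 19462 and 20386 bases that the annotation placed in the 3′ UTR and the 5′ UTR. A further WT peak of 18.2, with a log10 FDR of -157, lay within the same Tyrobp-/- span, so the maxima there were 18.2 in WT and 18.4 in Tyrobp-/- mice. Kcnj2, the classical strong inward rectifier, had 4.51 and 14.3 in the 3′ UTR, with log10 FDR of -31.5 and -37.7, while a nearby larger 3′ UTR peak had 14.5 and 18. Kcnip3, a calcium-binding Kv auxiliary subunit also known as DREAM, had 15.6 and 44.8 over its 5′ UTR, with log10 FDR of -10.8 and -43.9, while its 3′ UTR peaks had 3.04 and 2.29 and 1.92 and 1.72. Kcnab1 had 4.12 and 9.85, where the Tyrobp-/- peak also overlapped a WT peak of 5.13, against which it was less than 2-fold higher. Cacna2d4 and Hcn4 had the 3′ UTR values of 3.99 and 8.25 and of 3.42 and 6.86.

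The lower pairs of this kind lay in Kcnk13, Kcnk6 and Cacng8. Kcnk13 encodes THIK-1, a leak channel known from microglia. Its 5′ UTR peak at chr12:99964499-99965538 had 16.6 in WT and 3.23 in Tyrobp-/- mice, with log10 FDR of -14.1 and -7.79. A weakly supported neighbour in the same 5′ UTR differed the other way, at 1.70 and 10.5, and the 3′ UTR peak had 15.7 and 13.9, with an FDR listed at 0 in both. The microglia markers carried 22 peaks in WT and 23 in Tyrobp-/- mice, and their part in the Kcnk13 values was not tested. Kcnk6, another 2-pore channel, had 16.1 in WT and 5.11 in Tyrobp-/- mice in the 3′ UTR, with log10 FDR of -9.39 and -11.8. Its 2 other matched 3′ UTR peaks were not of this kind and were also lower, 5.78 against 4.16 and 6.51 against 1.83. The Tyrobp-/- peak of 1.83 had an FDR above 0.05, with a log10 FDR of -0.761. It had 60 exonic bases against 419 in WT. Cacng8 had 11.7 in WT and 3.47 in Tyrobp-/- mice over its 5′ UTR at chr7:3390683-3394889, with log10 FDR of -184 and -117. A further Tyrobp-/- peak of 6.13, with a log10 FDR of -9.11, lay in the same WT span, and against it the WT value was less than 2-fold higher.

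**Figure D5:**
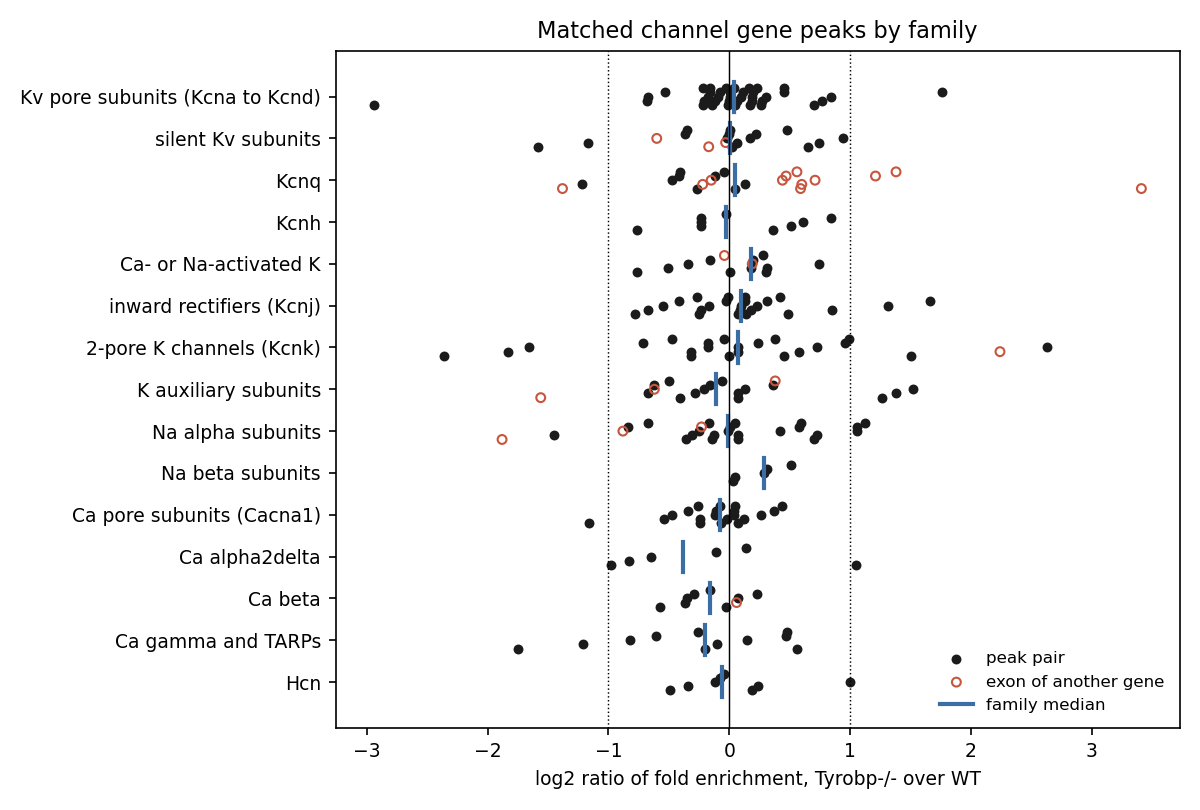
log2 ratio of fold enrichment, Tyrobp-/- over WT, of each of the 249 matched channel gene pairs, by family, with the family median as a bar. Dotted lines mark 2-fold differences and open red circles mark pairs in an exon of another gene. Family medians lie between -0.38 and 0.29.

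The remaining large differences rested on weak or poorly aligned peaks. The largest was in Kcnq1, at 1.80 in WT and 19.1 in Tyrobp-/- mice, where the peaks shared 1 base within the span of Kcnq1ot1. The largest in the lower direction was in Kcnb2, at 20.5 and 2.67, where a WT peak of 181 bases met a Tyrobp-/- peak spanning 24939 bases with an FDR above 0.05. Its better supported 3′ UTR peak had 20.5 and 12.9. Kcnk10 had 5.86 and 27.6 in an exon of another gene, and its 3′ UTR pair had a log2 ratio of 0.07. Kcnk2 had 5.48 and 15.5 over spans of 3091 and 890 bases, a difference that did not hold against the WT peaks of 17.1 and 20.9 at the same place. Scn1a had 11.7 and 3.18 in an exon of another gene, Scn8a had 11.7 and 4.29 in a peak with an FDR above 0.05 in Tyrobp-/- mice, and the muscle gene Cacng1 had 42.0 and 18.1 with log10 FDR of -10.5 and -3.79. Single fold enrichment values also recurred, as 6.84 did for 1281 WT peaks and 6.67 for 1361 Tyrobp-/- peaks, of which 9 and 13 were channel gene peaks, and the read depth behind a single peak is not given.

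Of the channel gene peaks, 41 of 359 in WT, 11.4% with an exact interval of 8.32% to 15.2%, overlapped a row of the table in which the study compared the genotypes, against 14.6% of all WT peaks. For Tyrobp-/- mice the count was 45 of 371, 12.1% with an interval of 8.99% to 15.9%, against 16.0%. Of the 44 channel gene rows, 22 were annotated to 3′ UTRs, 10 to 5′ UTRs and 12 to other exons, and 6 were given an exon of another gene. These rows are listings and not called differences. The 2-pore channels held 9 rows, more than any other family, in Kcnk2, Kcnk6, Kcnk7, Kcnk9, Kcnk10 and Kcnk13. That family had 35 peaks in WT and 32 in Tyrobp-/- mice, and the sodium channel alpha subunits had 34 and 37. Sodium channel alpha subunits held 5 rows, the Kv pore subunits, the potassium channel auxiliary subunits and the Cacna1 genes 4 each, and the Hcn genes and sodium channel beta subunits none.

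A list of 26 genes for scaffolds and partners of these channels was read in the same way. Peaks were found in 23 of them in WT and in 22 in Tyrobp-/- mice, with 77 and 73 peaks, and Fgf13, Nalcn and Vapa had none. The list gave 55 matched pairs with a median log2 ratio of 0.06, of which 4 were at least 2-fold higher and 4 at least 2-fold lower in Tyrobp-/- mice, and the shares over all matched pairs were 7.13% and 6.26%. The lower pairs included those of Ank2, at 3.91 and 1.79, 10.7 and 2.35, and 26.4 and 3.18. The higher ones included those of Ank3, at 2.18 and 4.64 and at 7.07 and 17.4. The largest numbers of peaks were in these 2 genes, which encode ankyrins that anchor membrane proteins, with 11 in WT and 10 in Tyrobp-/- mice each.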

How the data were processed

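Hippocampal RNA of WT and Tyrobp-/- mice was profiled by MeRIP-seq, with 3 IP and 3 input libraries per genotype. Reads were trimmed by the authors with fastp and mapped with HISAT2 to the mouse genome (Ensembl 96, GRCm38). Peak calling with exomePeak used the 3 replicates as one set, and ChIPseeker gave the annotation. The deposited read counts, and the percent of bases at Q30 and of G and C, are the authors' per library. In the peak lists the authors deposited a ratio of IP over input (fold enrichment), a score that is the log10 of the FDR, and a p-value, which is at most 0.05. The comparison table holds the study's own fold changes, p-values and FDRs, which were not used. Only its positions and annotation were.

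Members and lists were chosen with earlier results of these data known. Peaks were matched within a gene as mutual largest overlaps, by at least 1 bp of span, and 2-fold ratios were counted. Matching was tested only on simulated copies of the WT list with slightly shifted peaks. No peak in them was split, merged or changed in width, so the test does not cover such pairs. Overlapping genes were checked against RefSeq (GRCm38.p6). Intervals are exact 95% binomial (Clopper-Pearson). Genes named were those with the 10 strongest peaks per list, the 10 largest ratios each way, the 5 largest numbers of peaks, the most peaks or none in their family, or a peak in 1 list alone, those in the comparison table that are also named for another reason, and a fixed list of well-known channels; others were chosen after their values were seen. Alternatives used an FDR below 1e-5, a fold enrichment of at least 4, voltage-opened pore subunits only, 1 peak per gene, other overlap rules, centring and a 1.5-fold limit. Python 3 with numpy and pandas was used. Some channel genes are not reported here.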

Additional observations from a re-analysis of the deposited data

How the results depend on the processing

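No paired analysis was possible because the deposited peaks have 1 value per genotype over pooled replicates, and for the same reason no replicate could be left out. Of 76 values under alternatives, 43 stayed within the limits set for them. Values are given for WT and then Tyrobp-/- mice. With an FDR below 1e-5, the 3′ UTR share was 62.5% and 63.5%, the median fold enrichment in Tyrobp-/- mice 6.75, the overlapping share 87.5% and 88.9%, and 9 matched pairs were at least 2-fold higher and 3 lower in Tyrobp-/- mice. With a fold enrichment of at least 4, WT peaks numbered 238, the medians were 8.72 and 8.31, and 9 pairs were higher and 5 lower. With voltage-opened pore subunits only, there were 198 and 214 peaks in 58 and 59 genes, 20 rows of the comparison table, 84.8% of WT peaks overlapped, and 8 pairs were higher and 8 lower. With 1 peak per gene, the 3′ UTR share was 65.0% and 67.2% and the median 10.7 and 11.1. With a reciprocal overlap of 50%, 57.1% and 55.3% overlapped, and 9 pairs were higher and 7 lower. With a 1.5-fold limit, 36 were higher and 33 lower. Centring on all matched pairs turned the median log2 ratio to -0.04. Without exons of other genes, chosen after the data were seen, the 3′ UTR share was 58.7% and 58.1%. That share could only rise, because no peak annotated to a UTR was removed. Except for centring, which changes the reference, these alternatives change which peaks enter or what counts as called.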
